A study of Mus musculus with 16 samples.

Results

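The genes described here are 41 listed members of the NF-kB, tumour necrosis factor (TNF) and Toll-like receptor signalling pathways, followed in RNA from mouse bone marrow. They were chosen by name, and all 41 were found among the 55291 rows of the deposited count table. All 41 also passed the filter on low counts, which kept 22749 genes. Bone marrow cells that are lineage-negative, c-Kit-positive and Sca-1-positive (LSK cells, the compartment that holds haematopoietic stem cells and early progenitors) were enriched with beads from individual C57BL/6 mice, and total RNA was sequenced. There were 4 mice in each of 4 genotypes. DM mice carried both Asxl1Y588XTg and Srsf2P95H/+. Asxl1Tg mice carried Asxl1Y588XTg alone, a transgene that encodes a truncated version of Asxl1, which regulates chromatin. Srsf2P95H mice carried Srsf2P95H/+ alone, a mutation in 1 copy of a splicing factor gene. WT mice were wild type. The promoter of the transgene, the Cre driver if any, the age, the sex and the batch were not given in the sources used here. No mouse was labelled as treated.

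NF-kB is a family of dimeric transcription factors that inhibitory IkB proteins hold in the cytoplasm. Receptors for TNF, interleukin-1 and microbial products recruit adaptors, kinases and ubiquitin ligases that activate the IKK complex, which marks IkB for destruction and frees NF-kB to enter the nucleus. Among the first genes that NF-kB switches on are its own inhibitors, such as Nfkbia and Tnfaip3, together with cytokines and chemokines. In blood stem and progenitor cells the pathway is known for linking inflammation to emergency production of myeloid cells.

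Each library held between 82991487 and 127596225 counts. Levels are given as CPM, counts relative to the library total, after TMM scaling, which adjusts each library for its composition, and differences as log2 fold changes from edgeR's quasi-likelihood test with Benjamini-Hochberg adjustment over all 22749 genes. Genes below an adjusted p of 0.05 are described as called. Kit, which defines LSK cells, averaged 1042 CPM in DM, 821.6 CPM in Asxl1Tg, 885.6 CPM in Srsf2P95H and 942.7 CPM in WT. Ly6a, which encodes Sca-1, averaged 35.6, 36.5, 42.25 and 30.39 CPM in the same order. The T-cell gene Cd3e and the neutrophil gene Ly6g averaged at most 0.148 and 0.05 CPM in any genotype, but other listed markers were present, such as Nkg7 (87.1 to 128.9 CPM) and Padi4 (70.7 to 92.3 CPM). The LSK markers summed to 2503 to 3904 CPM in a library. Summed over each other list, T and NK cell markers reached at most 182.2 CPM, B-cell markers 133.7 CPM and dendritic-cell markers 64.73 CPM. Neutrophil markers reached 249.4 CPM, monocyte and macrophage markers 512.5 CPM, mast-cell and basophil markers 603.2 CPM and eosinophil markers 1580 CPM. Erythroid markers reached 323 CPM and stromal and endothelial markers 315.6 CPM. Whether these come from other cells or from LSK cells was not tested. Neither Asxl1 nor Srsf2 was called in any comparison (smallest adjusted p 0.130, edgeR), and gene-level counts do not show the mutations themselves. Srsf2 averaged 203.5 CPM in DM, 254.4 CPM in Asxl1Tg, 224.7 CPM in Srsf2P95H and 204.3 CPM in WT. Its log2 fold change was 0.32 in Asxl1Tg against WT (95% interval 0.07 to 0.56). In DM against Asxl1Tg it was -0.32 (95% interval -0.56 to -0.08). Library WT 4 stood apart in having the highest summed B-cell markers of the WT mice (133.7 CPM, against 26.19 to 47.85 CPM in the other WT mice) and eosinophil markers (1580 CPM, against 42.79 to 311.3 CPM). Xist measured 1566 to 2312 CPM in 5 libraries (DM 1, Asxl1Tg 3, Srsf2P95H 2 and 3, WT 1) and reached at most 2.11 CPM in the rest. In bulk RNA such as this, fewer cells of a type and less RNA per cell cannot be told apart.

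Most of the signalling machinery was present at moderate and steady levels. Per kilobase of exon, the highest members in WT were Nfkbia (48.16 CPM per kb), Ccl3 (45.21), Tnfrsf1a (43.42), Irak1 (34.33) and Rela (30.75). The lowest were Cd40 (0.0332), Il1b (0.133), Traf1 (0.602), Cxcl2 (1.01) and Relb (2.43). Cd40 rested on 2 to 26 reads per library and Il1b on 13 to 90. The spread between mice of 1 genotype differed widely among the members, also within a role. The median SD of log2 CPM within a genotype was 0.17 over the 41 members and 0.316 over all genes tested. Traf6 (0.046), Ripk1 (0.057), Tab2 (0.06) and Nfkb1 (0.071) varied least, all of them signalling proteins or a subunit. Cxcl2 (1.92), Ccl3 (1.04), Tnfaip3 (0.942), Ccl4 (0.899), Il1b (0.894), Tnf (0.756) and Nfkbiz (0.671) varied most, and these are cytokines, chemokines and inhibitors that NF-kB is known to induce rapidly. Within roles, adaptors reached 0.449 (Traf1), receptors 0.641 (Cd40) and subunits 0.388 (Relb), and the NF-kB target Icam1 was at 0.154.

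**Figure D1:**
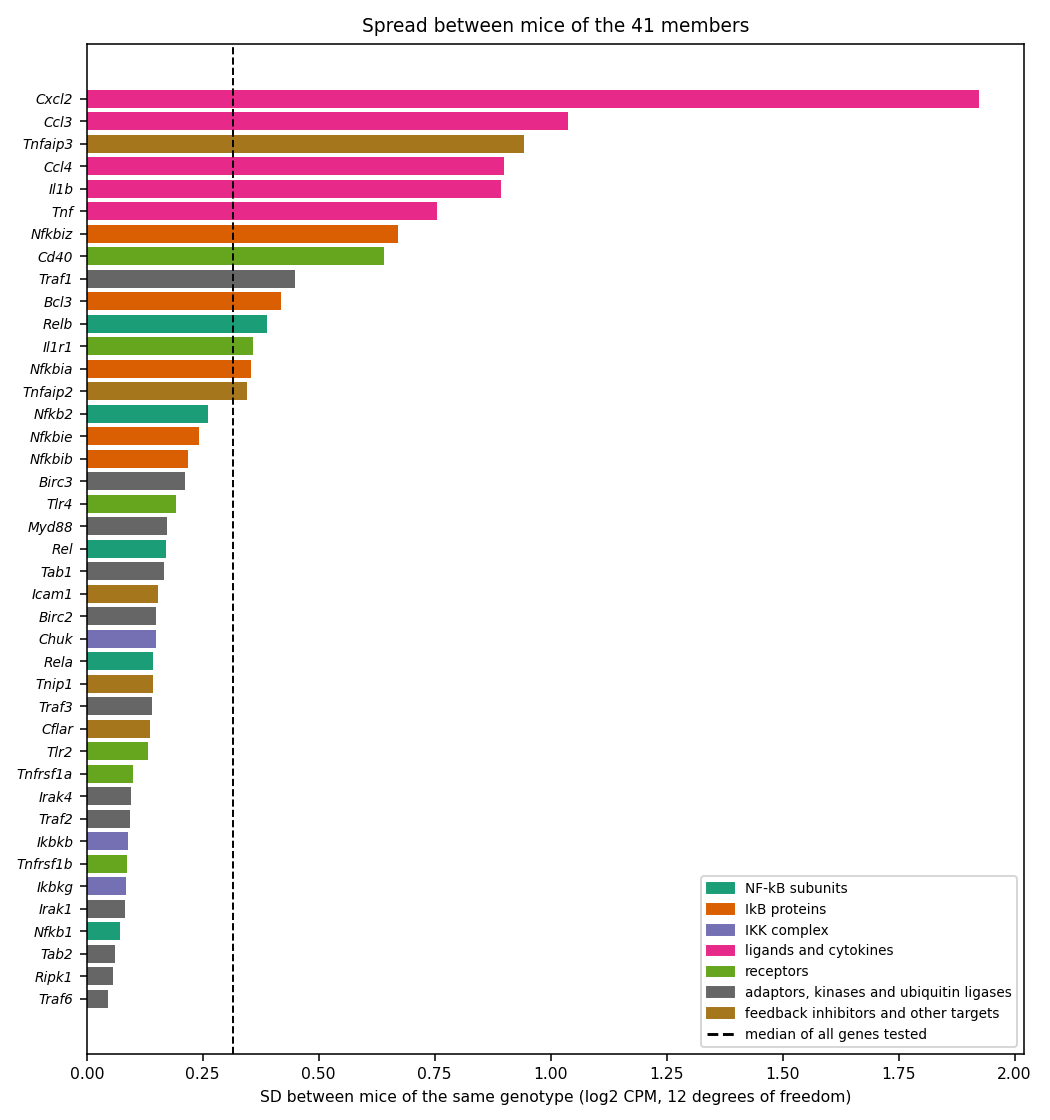
SD of log2 CPM between mice of the same genotype (x axis) for each of the 41 members (y axis), coloured by role, with the dashed line at the median of all genes tested (0.316). Ligands and cytokines fill 5 of the 6 widest bars, and adaptors and kinases most of the narrowest.

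Few members were called between genotypes. DM against WT had 4 of 41 called (9.76%), against 9.39% of all genes tested. Of these, 2 were higher, against 4.65% of all genes, and 2 lower, against 4.73%. Asxl1Tg against WT had 1 of 41 (2.44%), against 1.88% of all genes. It was lower, against 0.76% of all genes lower and 1.12% higher. Srsf2P95H against WT had 0 of 41, against 0.506%. DM against Asxl1Tg had 1 of 41, against 1.08%, and it was higher, against 0.848%. DM against Srsf2P95H had 0, against 0.246%. The interaction, DM - Asxl1Tg - Srsf2P95H + WT on the log2 scale, called 0 members and 0% of all genes. With the genotypes pooled to 8 mice against 8, the Srsf2 mutation over both Asxl1 states had 7 of 41 (17.1%), against 10.6%. Of these 7, 6 were higher, against 6.57% of all genes, and 1 lower, against 4.07%. The Asxl1 transgene over both Srsf2 states had 0, against 1.85%, of which 0.444% were lower. The members' share was near that of all genes in DM against WT. In that comparison Tnfrsf1a, Tlr2 and Tab2 had all DM libraries above all WT libraries (7.32% of members, against 9.28% of all genes). Rel, Il1r1 and Birc3 had all below (7.32%, against 9.35%). These comparisons share mice, so their counts are not independent of each other. The members also varied less between mice (median SD of log2 CPM 0.17) than all genes tested (0.316). The shares of all genes, here and below, were not matched for this spread. The median log2 fold change of the 41 members was -0.02 in DM against WT (all genes -0.02), -0.12 in Asxl1Tg against WT (all genes -0.04) and 0.02 in Srsf2P95H against WT (all genes -0.05).

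**Figure D2:**
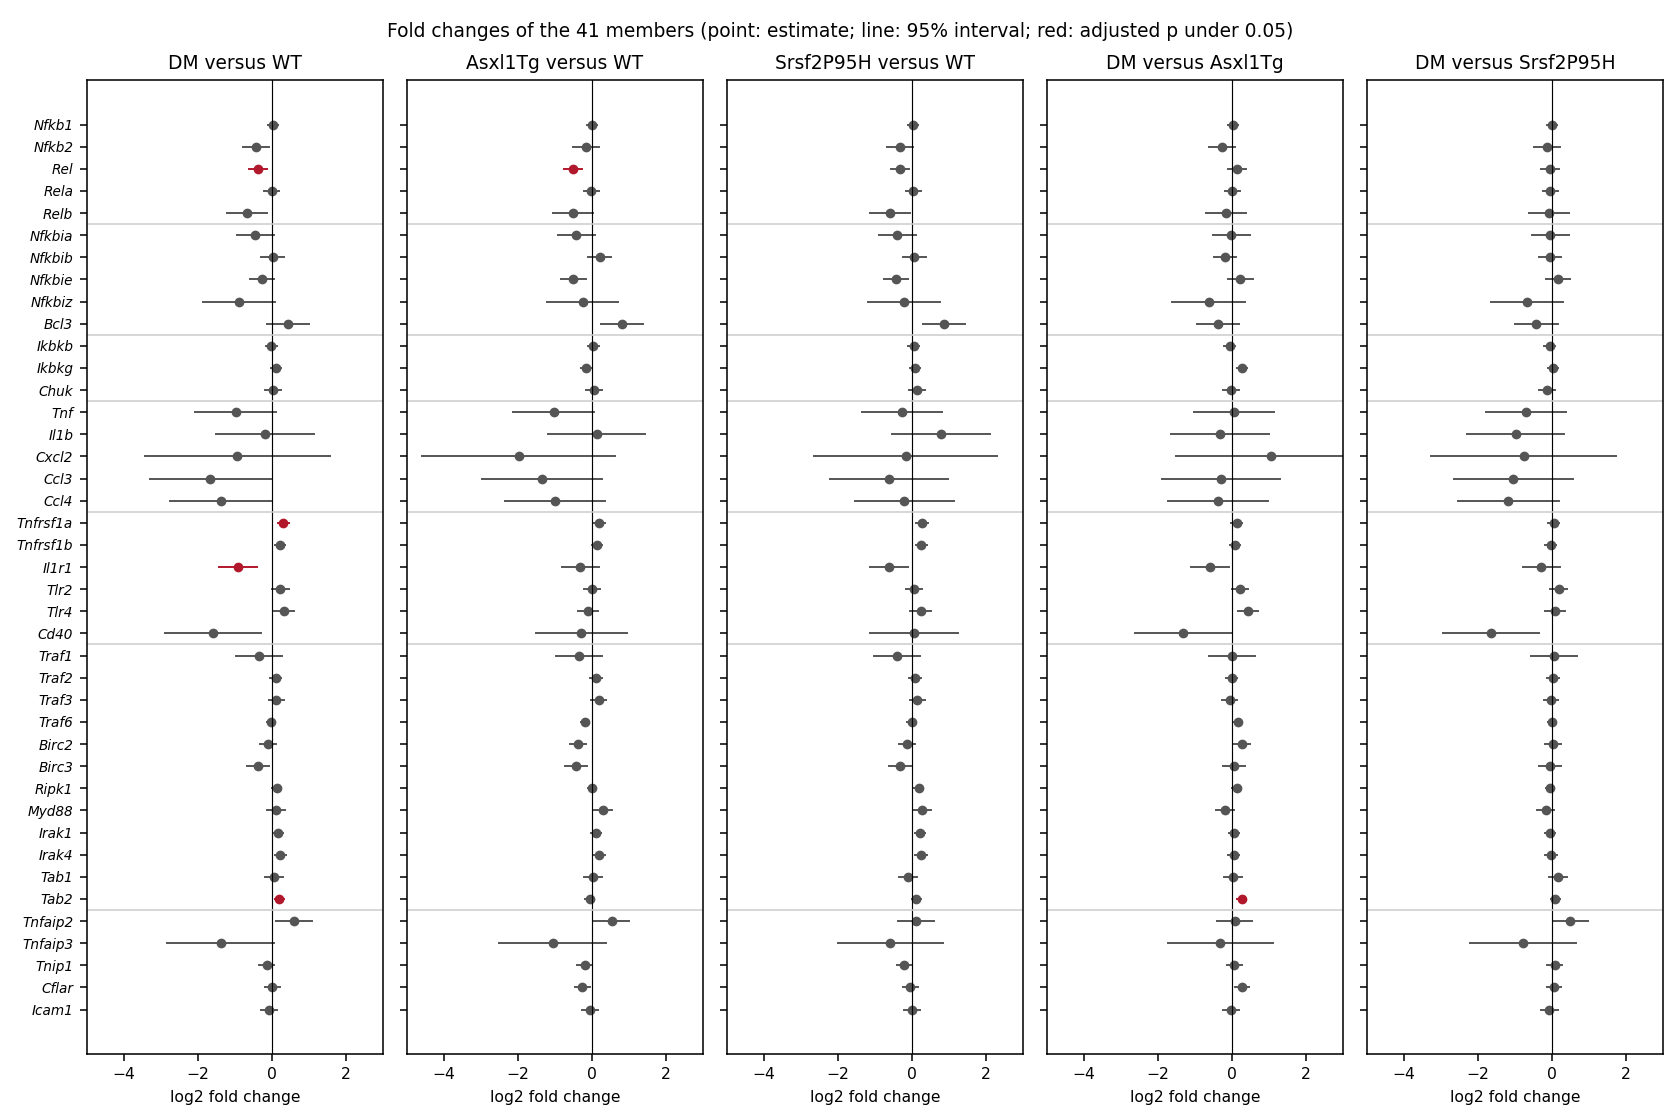
Log2 fold change (x axis) of each of the 41 members (y axis, grouped by role) in 5 comparisons, with 95% intervals and called members in red. The called members are Tnfrsf1a, Tab2, Il1r1 and Rel in DM against WT, Rel in Asxl1Tg against WT and Tab2 in DM against Asxl1Tg, and the widest intervals belong to Cxcl2.

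Among the 5 NF-kB subunits, Rel (GRCm38 chr11:23736847-23770970, minus strand) was the one with a called difference. Rel encodes c-Rel, a subunit with a transactivation domain that is most used in blood cells. Its levels were 53.6, 56.5, 65.8 and 57.7 CPM in DM, 50.5, 65.4, 49.3 and 47.2 CPM in Asxl1Tg, 54.2, 70.5, 64.5 and 53.5 CPM in Srsf2P95H, and 68.5, 71.2, 82.5 and 80.7 CPM in WT. Every DM and every Asxl1Tg library lay below the lowest WT library, whereas Srsf2P95H 2 overlapped WT. Rel averaged 58.4 ± 5.24 CPM in DM, 53.1 ± 8.30 CPM in Asxl1Tg, 60.7 ± 8.24 CPM in Srsf2P95H and 75.7 ± 6.92 CPM in WT (SD, n = 4 each). It fell in Asxl1Tg against WT by 0.51 log2 (SE 0.11, adjusted p = 0.0292, edgeR) and in DM against WT by 0.38 log2 (SE 0.11, adjusted p = 0.0457, edgeR). In Srsf2P95H against WT the log2 fold change was -0.32 (SE 0.11, adjusted p = 0.0985, edgeR), which did not pass. Each of these calls was lost on leaving out any 1 of 6 libraries, which were WT 2, 3 or 4 or Asxl1Tg 1, 3 or 4 in the first (adjusted p 0.0601 to 0.122, edgeR) and WT 2, 3 or 4 or DM 1, 2 or 4 in the second (0.0616 to 0.135). Both were also lost without WT 4 and Srsf2P95H 2 together (0.0599 in Asxl1Tg, 0.0792 in DM) and with a myeloid-marker covariate (0.0633 and 0.0527). The Asxl1Tg call was further lost with the compared groups alone (0.106), and the DM call without the low-count filter (0.0541) and with the immediate-early covariate (0.0792). The log2 fold change of Rel ranged from -0.63 to -0.46 in Asxl1Tg and from -0.47 to -0.33 in DM over these settings and the left-out libraries.

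The other subunits were not called in any comparison. Nfkb1, which encodes the p105 precursor of p50, averaged 271.6 CPM in DM, 268.6 CPM in Asxl1Tg, 273.0 CPM in Srsf2P95H and 268.5 CPM in WT. Rela, which encodes the main activating subunit p65, averaged 93.9, 93.5, 96.7 and 94.5 CPM in that order. These pairs of values lie within the spread between mice. Relb and Nfkb2, the subunits of the non-canonical pathway, averaged 5.92 and 31.1 CPM in DM and 9.45 and 42.3 CPM in WT. Their log2 fold changes in DM against WT were -0.68 (SE 0.25, adjusted p = 0.0879, edgeR) for Relb and -0.44 (SE 0.17, adjusted p = 0.091, edgeR) for Nfkb2. WT 3 held the highest value of both genes, 15.2 and 57.8 CPM.

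The receptors held the largest called differences. Il1r1 (chr1:40225080-40317257, plus strand), the signalling receptor for interleukin-1, measured 37.0, 48.2, 55.6 and 47.3 CPM in DM, 61.04, 76.9, 45.5 and 100.2 CPM in Asxl1Tg, 69.4, 47.3, 57.4 and 55.7 CPM in Srsf2P95H, and 61.6, 86.1, 123.1 and 83.1 CPM in WT. All 4 DM libraries lay below the lowest WT library, and 3 of the 4 Srsf2P95H libraries did. Il1r1 fell in DM against WT by 0.91 log2 (SE 0.24, adjusted p = 0.0317, edgeR), a 1.88-fold lower level. Over both Asxl1 states the Srsf2 mutation gave a median of 51.9 CPM (36.99 to 69.42, n = 8), against 80.0 CPM (45.52 to 123.1, n = 8) without it, and Il1r1 fell by 0.61 log2 (SE 0.17, adjusted p = 0.0355, edgeR). The first call was lost without WT 2, 3 or 4 or DM 1, 2 or 4 (adjusted p 0.0557 to 0.108, edgeR), and the lowest and highest log2 fold change without 1 library were -1.05 and -0.71. The pooled call was kept only without WT 1, Asxl1Tg 1, Asxl1Tg 3, Srsf2P95H 1 or DM 3, and was lost without any other library (0.052 to 0.0819). Both calls were also lost without the low-count filter (0.0683 in DM, 0.0767 pooled), on leaving out WT 4 together with Srsf2P95H 2 (0.0612 and 0.0723) and with the immediate-early covariate (0.0592 and 0.0529).

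The TNF receptors moved the other way. Tnfrsf1a (chr6:125349362-125362484, plus strand) encodes TNFR1, the receptor that most cells use to sense TNF. It measured 124.1, 148.6, 134.3 and 150.0 CPM in DM, 133.8, 115.6, 125.4 and 136.6 CPM in Asxl1Tg, 127.9, 138.4, 134.1 and 140.1 CPM in Srsf2P95H, and 122.6, 111.1, 107.9 and 108.3 CPM in WT. The DM and the Srsf2P95H libraries all lay above every WT library. Tnfrsf1a rose in DM against WT by 0.31 log2 (SE 0.07, adjusted p = 0.021, edgeR), a call lost without WT 3, DM 2 or DM 4 (0.0605 to 0.063) and with library size alone as the scaling (0.0638). In Srsf2P95H against WT the log2 fold change was 0.26 (SE 0.07, adjusted p = 0.0635, edgeR). Over both Asxl1 states it rose by 0.19 log2 with the Srsf2 mutation (SE 0.05, adjusted p = 0.0293, edgeR), a call lost without WT 3, Asxl1Tg 2, Srsf2P95H 1, Srsf2P95H 3, DM 2 or DM 4 (0.0503 to 0.0755) and without both WT 4 and Srsf2P95H 2 (0.0516).

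Tnfrsf1b (chr4:145213463-145246870, minus strand), which encodes the other TNF receptor, TNFR2, measured 98.3, 118.3, 112.1 and 117.5 CPM in DM, 105.3, 101.1, 106.8 and 109.8 CPM in Asxl1Tg, 108.8, 119.8, 112.4 and 116.6 CPM in Srsf2P95H, and 103.8, 92.8, 97.4 and 90.4 CPM in WT. The Srsf2P95H libraries lay above every WT library, and DM 1 overlapped WT. With the Srsf2 mutation over both Asxl1 states it rose by 0.16 log2 (SE 0.05, adjusted p = 0.0373, edgeR). This call was kept only without WT 1, Asxl1Tg 3, Asxl1Tg 4, Srsf2P95H 2, DM 1 or DM 3 and lost without any other library (0.0566 to 0.0964). It was also lost with the myeloid covariate (0.0669) and without both WT 4 and Srsf2P95H 2 (0.0765). Tnfrsf1b against WT had log2 fold changes of 0.22 in DM (adjusted p = 0.0514) and 0.25 in Srsf2P95H (adjusted p = 0.058), neither called by edgeR.

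Tlr4 (chr4:66827584-66930284, plus strand), the receptor for bacterial lipopolysaccharide, measured 25.7, 18.9, 25.7 and 23.0 CPM in DM, 14.8, 18.8, 17.98 and 17.7 CPM in Asxl1Tg, 22.5, 17.5, 27.2 and 20.8 CPM in Srsf2P95H, and 18.3, 17.4, 18.6 and 20.8 CPM in WT. The lowest DM library lay just above the highest Asxl1Tg library, and both DM and Srsf2P95H overlapped WT. Over both Asxl1 states it rose by 0.33 log2 with the Srsf2 mutation (SE 0.09, adjusted p = 0.0328, edgeR), a call lost without WT 2, WT 3, Asxl1Tg 1, Srsf2P95H 1, Srsf2P95H 3, DM 1 or DM 4 (0.0562 to 0.089). Tlr2, a receptor for bacterial lipoproteins, averaged 16.5 CPM in DM, 14.2 CPM in Asxl1Tg, 14.6 CPM in Srsf2P95H and 14.1 CPM in WT and was not called. Cd40, a TNF-family receptor best known from B cells and dendritic cells, stayed under 0.236 CPM in every library, with its highest value in WT 4, where the B-cell markers were also highest. The part of B cells in that value was not tested.

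**Figure D3:**
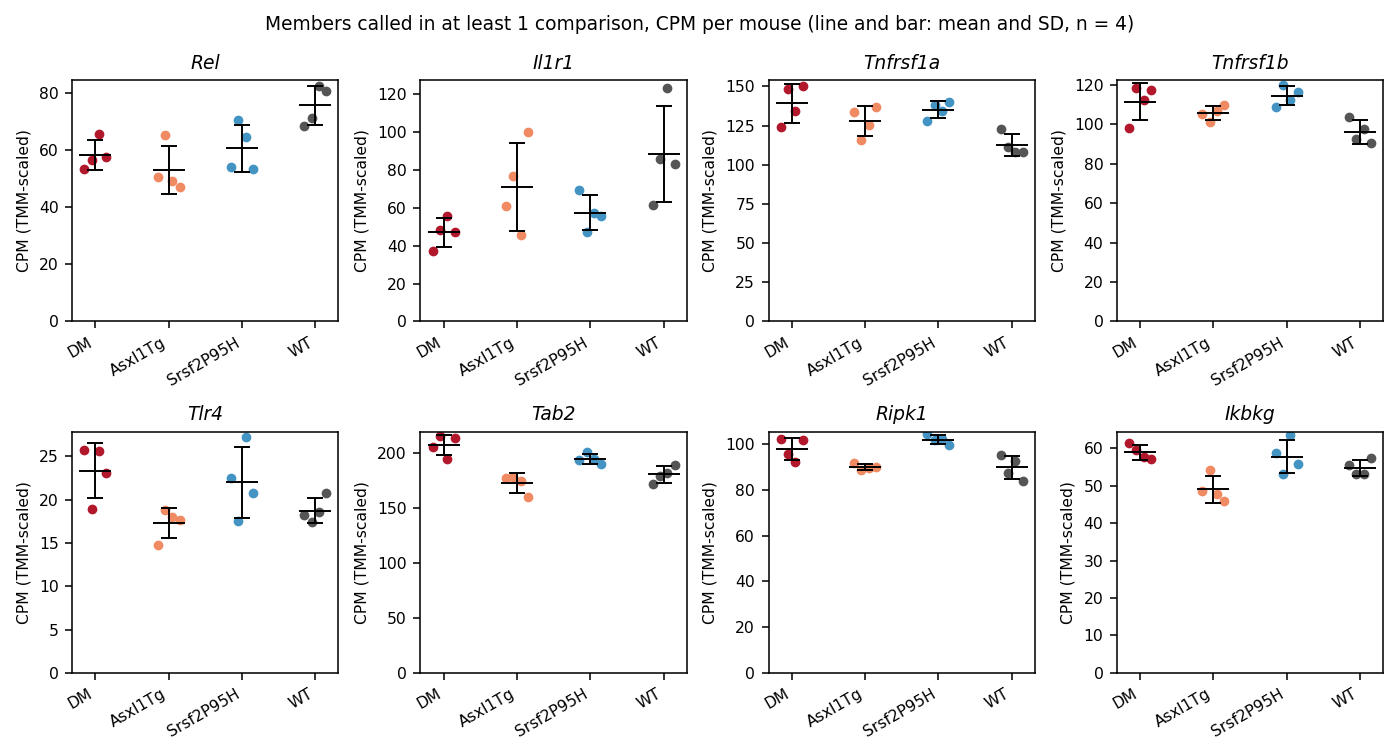
CPM after TMM scaling (y axis) in each mouse for the 8 members called in at least 1 comparison, by genotype (x axis), with the mean and SD (n = 4). All DM libraries lie below all WT libraries for Rel and Il1r1 and above them for Tnfrsf1a and Tab2.

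Of the 12 adaptors, kinases and ubiquitin ligases, Tab2 had the call that held without any 1 library. Tab2 (chr10:7905653-7956230, minus strand) encodes a ubiquitin-binding partner of the kinase TAK1, which activates IKK. It measured 205.3, 214.7, 194.4 and 213.0 CPM in DM, 177.2, 178.0, 174.6 and 159.2 CPM in Asxl1Tg, 193.3, 200.3, 194.4 and 189.3 CPM in Srsf2P95H, and 171.2, 178.5, 181.5 and 189.1 CPM in WT. All 8 libraries with the Srsf2 mutation lay above all 8 without it, by a margin that was narrow at 189.3 against 189.1 CPM. Tab2 was the only one of the 41 members (2.44%) whose pooled groups did not overlap in that direction, against 0.778% of all genes tested. It rose by 0.19 log2 over both Asxl1 states (SE 0.04, adjusted p = 0.0129, edgeR), and this call held on leaving out each of the 16 libraries. Tab2 also rose in DM against WT by 0.20 log2 (SE 0.06, adjusted p = 0.0413, edgeR) and in DM against Asxl1Tg by 0.26 log2 (SE 0.06, adjusted p = 0.0408, edgeR). These single comparisons were lost without WT 1, 2 or 3 or DM 1, 2 or 4 (0.0741 to 0.106) and without Asxl1Tg 1, 3 or 4 or DM 1, 2 or 4 (0.0553 to 0.16). Of 11 other settings, the first was lost in 7 (adjusted p up to 0.334, log2 fold change down to 0.10 with library size alone) and the second in 8 (adjusted p up to 0.17, log2 fold change down to 0.19).

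Ripk1 (chr13:34002363-34037147, plus strand), the kinase that decides between survival and death signals downstream of TNFR1, measured 102.0, 95.6, 92.1 and 101.7 CPM in DM, 91.6, 88.8, 89.8 and 89.8 CPM in Asxl1Tg, 104.4, 101.8, 102.2 and 99.4 CPM in Srsf2P95H, and 95.4, 87.6, 92.6 and 84.1 CPM in WT. The Srsf2P95H libraries all lay above WT, and the DM libraries all above Asxl1Tg. It rose by 0.15 log2 with the Srsf2 mutation over both Asxl1 states (SE 0.04, adjusted p = 0.0249, edgeR), a call lost without Asxl1Tg 1, Srsf2P95H 1, DM 1, DM 2 or DM 4 (0.0527 to 0.0811). In the IKK complex, Ikbkg (chrX:74393290-74453854, plus strand), which encodes the regulatory subunit NEMO, measured 61.6, 59.6, 57.6 and 57.1 CPM in DM, 48.6, 54.1, 47.8 and 45.8 CPM in Asxl1Tg, 58.8, 53.2, 63.6 and 55.8 CPM in Srsf2P95H, and 55.6, 53.1, 53.1 and 57.4 CPM in WT. All DM libraries lay above all Asxl1Tg libraries, and Srsf2P95H overlapped WT. Ikbkg rose by 0.17 log2 in the pooled comparison (SE 0.05, adjusted p = 0.0339, edgeR), a call kept only without WT 1, WT 4, Asxl1Tg 2, Srsf2P95H 2, Srsf2P95H 4 or DM 3 and lost without any other library (0.0502 to 0.0989). Its exons share 5.15% of their length with the opposite-strand gene G6pdx, and those of Ripk1 share 2.89% with Serpinb6a. The catalytic subunits of IKK, Ikbkb and Chuk, averaged 106.7 and 32.8 CPM in DM and 108.2 and 32.5 CPM in WT, with no call.

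These rises depended on the scaling. With library size alone in place of TMM scaling, the median log2 fold change of all genes shifted by -0.111 in Srsf2P95H against WT, by -0.099 in DM against WT and by -0.09 in the pooled Srsf2 comparison. On that scale the pooled calls numbered 2, both lower (Il1r1 and Nfkb2), and none of the 6 higher members was called. Their log2 fold changes were then 0.11 for Tnfrsf1a, 0.08 for Tnfrsf1b, 0.24 for Tlr4, 0.09 for Tab2, 0.06 for Ripk1 and 0.08 for Ikbkg, with adjusted p of 0.142 to 0.376 (edgeR). Without the low-count filter the pooled comparison called Tab2 alone, and with a stricter filter Tab2 and Il1r1.

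In Srsf2P95H against WT, no member was called by edgeR, whereas 7 members were higher (17.1%, against 14.2% of all genes) and 6 lower (14.6%, against 11.1%) at an unadjusted p under 0.05. DESeq2 called 6 members, all higher, and 11.9% of all genes. The 3 members with the smallest p were Tnfrsf1b, Tnfrsf1a and Irak4, a kinase that interleukin-1 and Toll-like receptors recruit through Myd88. Irak4 measured 48.6, 50.2, 44.8 and 46.5 CPM in Srsf2P95H and 44.0, 37.5, 41.4 and 37.4 CPM in WT, a log2 fold change of 0.25 (SE 0.07, adjusted p = 0.0707, edgeR). Its exons share 7.87% of their length with Twf1 on the other strand.  Tnfrsf1a, Tnfrsf1b, Ripk1, Myd88, Irak1, Irak4 and Tab2 each had all 4 Srsf2P95H libraries above all 4 WT libraries, which is 17.1% of the members, against 8.33% of all genes, and no member lay wholly below WT, against 5.4% of all genes.

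The remaining adaptors and ubiquitin ligases were not called in any comparison. Birc2 and Birc3, which encode the ubiquitin ligases cIAP1 and cIAP2, averaged 50.2 and 34.6 CPM in DM, 41.7 and 33.3 CPM in Asxl1Tg, 49.6 and 36.1 CPM in Srsf2P95H and 54.1 and 45.1 CPM in WT. In Asxl1Tg against WT their log2 fold changes were -0.38 (adjusted p = 0.0625) for Birc2 and -0.44 (adjusted p = 0.0931) for Birc3, and that of Traf6, the ligase that builds the ubiquitin chains in Toll-like receptor signalling, was -0.19 (adjusted p = 0.0607, all edgeR). Traf6 measured 72.5, 74.8, 77.2 and 75.4 CPM in Asxl1Tg and 84.6, 87.2, 85.0 and 86.3 CPM in WT, with no overlap. The members that did not overlap in Asxl1Tg against WT were Rel, Traf6 and Tnip1 below WT (7.32% of members, against 5.28% of all genes) and Bcl3 above it (2.44%, against 3.7%). Genotype means of Traf2 lay between 36.7 and 39.5 CPM, of Traf3 between 74.7 and 84.5 CPM, of Tab1 between 25.7 and 29.0 CPM and of Traf1 between 4.01 and 5.31 CPM. Myd88 means lay between 35.0 and 42.7 CPM, and its exons share 11.3% of their length with Acaa1a on the other strand. Irak1 means lay between 161.9 and 187.4 CPM.

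The IkB family gave no call in the edgeR fit. Bcl3, an atypical IkB protein that acts in the nucleus, measured 14.3, 20.5, 16.4 and 11.5 CPM in DM, 23.6, 14.9, 14.9 and 28.0 CPM in Asxl1Tg, 26.0, 14.99, 13.9 and 29.1 CPM in Srsf2P95H, and 11.6, 9.82, 14.7 and 10.1 CPM in WT. In the Asxl1Tg and in the Srsf2P95H mice it came as 2 higher and 2 lower libraries. The log2 fold changes against WT were 0.81 in Asxl1Tg (SE 0.27, adjusted p = 0.107, edgeR) and 0.86 in Srsf2P95H (SE 0.27, adjusted p = 0.0802, edgeR). Bcl3 also had the smallest p among the members in the interaction, with a log2 value of -1.24 (SE 0.38, adjusted p = 0.378, edgeR). It was followed by Nfkbie, a further cytoplasmic IkB, at 0.65 (SE 0.22) and Myd88 at -0.46 (SE 0.16), both with the same adjusted p. For the interaction edgeR called 0 members, 5 were higher (12.2%, against 5.93% of all genes) and 2 lower (4.88%, against 5.81%) at an unadjusted p under 0.05, and DESeq2 called 0 members and 0.196% of all genes. Nfkbie averaged 29.5 CPM in DM, 25.3 CPM in Asxl1Tg, 26.6 CPM in Srsf2P95H and 35.7 CPM in WT. Nfkbib means lay between 18.8 and 21.6 CPM, and its exons share 14.5% of their length with Ccer2 on the other strand.

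The promoters of 4 members that bear on the values and of 1 for contrast are shown in full. They are the windows of RefSeq (GRCm38.p6), 250 bases before the annotated start and 50 from it, 5′ to 3′ on the gene's strand. Capitals mark matches to the 10-base kB consensus, the site that NF-kB dimers bind, or to TATAAA, the letters of a core promoter element. Each was searched on both strands, so that TTTATA in Nfkbia is TATAAA read from the other strand. The search covered the whole window. The TATAAA match lies past the annotated start in Nfkbia and Icam1, and near the far upstream end in Tnfaip3. Overlapping kB matches run together. Nfkbia, Tnfaip3 and Cxcl2 are rapid targets whose levels varied together between mice, Rel is the called subunit, and Icam1 is a textbook NF-kB target whose level was steady.
Nfkbia, chr12:55492598-55492897, minus strand: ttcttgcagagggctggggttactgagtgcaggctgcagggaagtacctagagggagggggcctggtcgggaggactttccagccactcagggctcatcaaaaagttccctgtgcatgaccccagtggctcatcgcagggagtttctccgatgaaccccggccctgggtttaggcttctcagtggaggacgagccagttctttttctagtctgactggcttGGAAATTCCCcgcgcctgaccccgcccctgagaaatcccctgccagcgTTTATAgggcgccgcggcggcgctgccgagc
Tnfaip3, chr10:19015361-19015660, minus strand: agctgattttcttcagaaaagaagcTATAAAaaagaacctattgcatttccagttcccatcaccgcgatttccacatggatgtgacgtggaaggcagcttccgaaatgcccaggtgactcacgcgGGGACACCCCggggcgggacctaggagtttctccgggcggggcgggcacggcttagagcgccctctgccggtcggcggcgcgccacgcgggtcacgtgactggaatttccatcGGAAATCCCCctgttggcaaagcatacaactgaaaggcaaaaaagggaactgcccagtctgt
Cxcl2, chr5:90903649-90903948, plus strand: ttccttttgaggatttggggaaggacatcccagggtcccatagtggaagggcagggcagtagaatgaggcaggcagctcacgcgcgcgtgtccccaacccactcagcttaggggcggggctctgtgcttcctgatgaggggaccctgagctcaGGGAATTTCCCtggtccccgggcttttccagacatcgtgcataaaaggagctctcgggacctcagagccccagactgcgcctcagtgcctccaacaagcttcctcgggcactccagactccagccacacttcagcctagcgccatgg
Rel, chr11:23770920-23771219, minus strand: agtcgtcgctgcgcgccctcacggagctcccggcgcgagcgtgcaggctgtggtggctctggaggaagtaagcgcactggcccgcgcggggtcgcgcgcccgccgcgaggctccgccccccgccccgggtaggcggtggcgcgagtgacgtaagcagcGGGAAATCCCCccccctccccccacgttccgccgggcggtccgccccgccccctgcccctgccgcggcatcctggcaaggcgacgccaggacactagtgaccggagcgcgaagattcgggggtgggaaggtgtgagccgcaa
Icam1, chr9:21015690-21015989, plus strand: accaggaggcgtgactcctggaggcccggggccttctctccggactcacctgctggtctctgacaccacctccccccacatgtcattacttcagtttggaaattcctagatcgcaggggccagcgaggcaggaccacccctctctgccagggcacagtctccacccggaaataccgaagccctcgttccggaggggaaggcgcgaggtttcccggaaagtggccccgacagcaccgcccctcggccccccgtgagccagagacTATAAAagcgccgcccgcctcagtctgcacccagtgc

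The kB match of Nfkbia begins 29 bases before the start, those of Cxcl2 97 and 96 bases before, those of Rel 92 and 91 bases before, and those of Tnfaip3 125 and 12 bases before. A second Tnfaip3 window in RefSeq holds no match. Windows were matched by symbol for 33 of the 41 members, 44 windows in all. Ccl4, Cd40, Ikbkb, Nfkb1, Nfkbiz, Relb, Tab1 and Tlr4 had none. The kB consensus occurred in 13 of the 44 windows (29.5%) and in 1480 of 32851 windows of all genes (4.51%). TATAAA occurred in 7 of the 44 (15.9%) and in 13.6% of all. The members with a kB match were Bcl3, Cxcl2, Il1r1, Nfkb2, Nfkbia, Nfkbie, Rel, Tlr2, Tnfaip3, Tnip1 and Traf3. A match describes letters and does not show binding. A window with no match says nothing about sites elsewhere, or about sites within it that differ from the consensus. Of the members with a call, Rel and Il1r1 had a match in a window, and Tnfrsf1a, Tnfrsf1b, Tab2, Ripk1 and Ikbkg had none. Whether a match goes with the direction of a difference was not tested.

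The rapidly induced members showed the widest differences between mice. Tnfaip3 encodes A20, a ubiquitin-editing enzyme that shuts the pathway down. It measured 28.2, 46.6, 24.4 and 46.6 CPM in DM, 49.1, 77.2, 26.4 and 28.8 CPM in Asxl1Tg, 46.1, 154.8, 29.4 and 23.0 CPM in Srsf2P95H, and 69.6, 129.8, 153.2 and 26.8 CPM in WT. WT 2, WT 3 and Srsf2P95H 2 were high and WT 4 was as low as the lowest mutants, so that every group overlapped every other. Nfkbia, which encodes the prototype inhibitor IkB-alpha, measured 47.5, 65.0, 54.2 and 61.1 CPM in DM, 57.7, 73.0, 48.7 and 50.9 CPM in Asxl1Tg, 57.4, 78.5, 50.4 and 49.2 CPM in Srsf2P95H, and 62.9, 89.6, 110.7 and 46.9 CPM in WT. The same 3 libraries were its highest and WT 4 its lowest. Nfkbiz, a nuclear IkB protein that is needed for secondary response genes, measured 43.4, 71.2, 61.2 and 64.8 CPM in DM, 95.4, 139.9, 50.3 and 87.8 CPM in Asxl1Tg, 84.6, 165.0, 56.2 and 76.9 CPM in Srsf2P95H, and 101.3, 129.2, 177.0 and 38.4 CPM in WT. Here Asxl1Tg 2 joined the high libraries, and WT 4 was again the lowest of all 16.

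Ccl3, Ccl4 and Tnf were high in the same libraries. Ccl3, a chemokine for monocytes and T cells, measured 5.84, 17.9, 8.67 and 11.4 CPM in DM, 14.9, 28.6, 5.01 and 5.50 CPM in Asxl1Tg, 11.8, 56.8, 9.40 and 12.4 CPM in Srsf2P95H, and 23.5, 52.9, 49.9 and 12.3 CPM in WT. Ccl4, its neighbour on chromosome 11, ranged from 2.93 to 7.44 CPM in DM, from 2.51 to 12.8 CPM in Asxl1Tg, from 4.55 to 26.9 CPM in Srsf2P95H and from 5.83 to 18.8 CPM in WT. Tnf measured 3.64, 5.41, 2.19 and 4.98 CPM in DM, 4.04, 5.82, 2.85 and 2.94 CPM in Asxl1Tg, 4.75, 14.8, 3.46 and 3.40 CPM in Srsf2P95H, and 4.51, 11.2, 12.3 and 4.00 CPM in WT. For all 3 genes Srsf2P95H 2 was the highest of the 16 libraries, followed by WT 2 and WT 3. Cxcl2, a neutrophil-attracting chemokine, had 22 to 283 reads in DM, 21 to 111 in Asxl1Tg, 40 to 436 in Srsf2P95H and 4 to 566 in WT, the 4 reads being in WT 4. Il1b, which encodes interleukin-1 beta, averaged 0.219 CPM in DM, 0.273 CPM in Asxl1Tg, 0.433 CPM in Srsf2P95H and 0.254 CPM in WT. It did not follow these libraries throughout, since WT 3 held its lowest value of all 16 (0.1097 CPM) and DM 1 was high (0.414 CPM).

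None of these rapidly induced members was called in DM or in a single mutant against WT. In DM against WT the log2 fold change was -1.38 for Tnfaip3 (SE 0.67, 95% interval -2.83 to 0.07, adjusted p = 0.181), -0.45 for Nfkbia (SE 0.23, adjusted p = 0.209) and -0.89 for Nfkbiz (SE 0.45, adjusted p = 0.2), all by edgeR. For Ccl3 it was -1.66 (SE 0.75, adjusted p = 0.158), for Ccl4 -1.39 (SE 0.63, adjusted p = 0.158) and for Tnf -0.98 (SE 0.51, adjusted p = 0.206). In Asxl1Tg against WT the values ran from -1.98 for Cxcl2 (SE 1.202) to 0.12 for Il1b (SE 0.63), with adjusted p of 0.259 or more. In DM against WT the 95% intervals of Nfkbia, Nfkbiz, Tnf and Tnfaip3 included 0, and those of Ccl3 (-3.29 to -0.03) and Ccl4 (-2.76 to -0.02) ended just below it.

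These members moved with the immediate-early genes, a list of 18 genes such as Fos, Jun and Egr1 that cells switch on within minutes of a stimulus, including tissue handling. The summed level of that list was 1793 to 3219 CPM in DM, 2372 to 9526 CPM in Asxl1Tg, 2662 to 14820 CPM in Srsf2P95H and 839.3 to 13050 CPM in WT. Its lowest library was WT 4 and its highest Srsf2P95H 2, and none of its genes was at 0 in any library. All 18 had a negative log2 fold change in DM against WT (median -1.36), and none was called. After the mean of each genotype was subtracted from both, the mean log2 level of the list over the 16 libraries correlated with Nfkbiz at r = 0.964 (Spearman's rho 0.985), with Tnfaip3 at 0.961 (0.959), with Nfkbia at 0.938 (0.903) and with Cxcl2 at 0.926 (0.888). For these 4 genes the permutation p, two-sided and permuted within genotypes, was at most 4e-05, where 1e-05 is the smallest that 100000 permutations can give, and at most 6e-05 after adjustment over the 6 relations that were tested. The r of all 41 members was also computed, without a test, to order the plot of deviations. It was over 0.8 for 7 of them and over 0.5 for 16, and the adjustment does not cover those further relations. Without WT 4 and Srsf2P95H 2, the libraries farthest from the median of the list, r was 0.938, 0.94, 0.909 and 0.878 in the same order. Icam1, an adhesion molecule for leukocytes, gave r = 0.461 (permutation p = 0.0426, adjusted 0.0511) and rho = 0.553 (p = 0.0249, adjusted 0.0299), and r was 0.493 without those libraries. Il1b gave r = 0.53 (permutation p = 0.112, unchanged by the adjustment) and rho = 0.329 (p = 0.308), and r was 0.28 without them. Both measures come from the same libraries and share their depth and scaling, and the part of the immediate-early level in the differences between genotypes was not tested beyond the fits that follow.

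**Figure D4:**
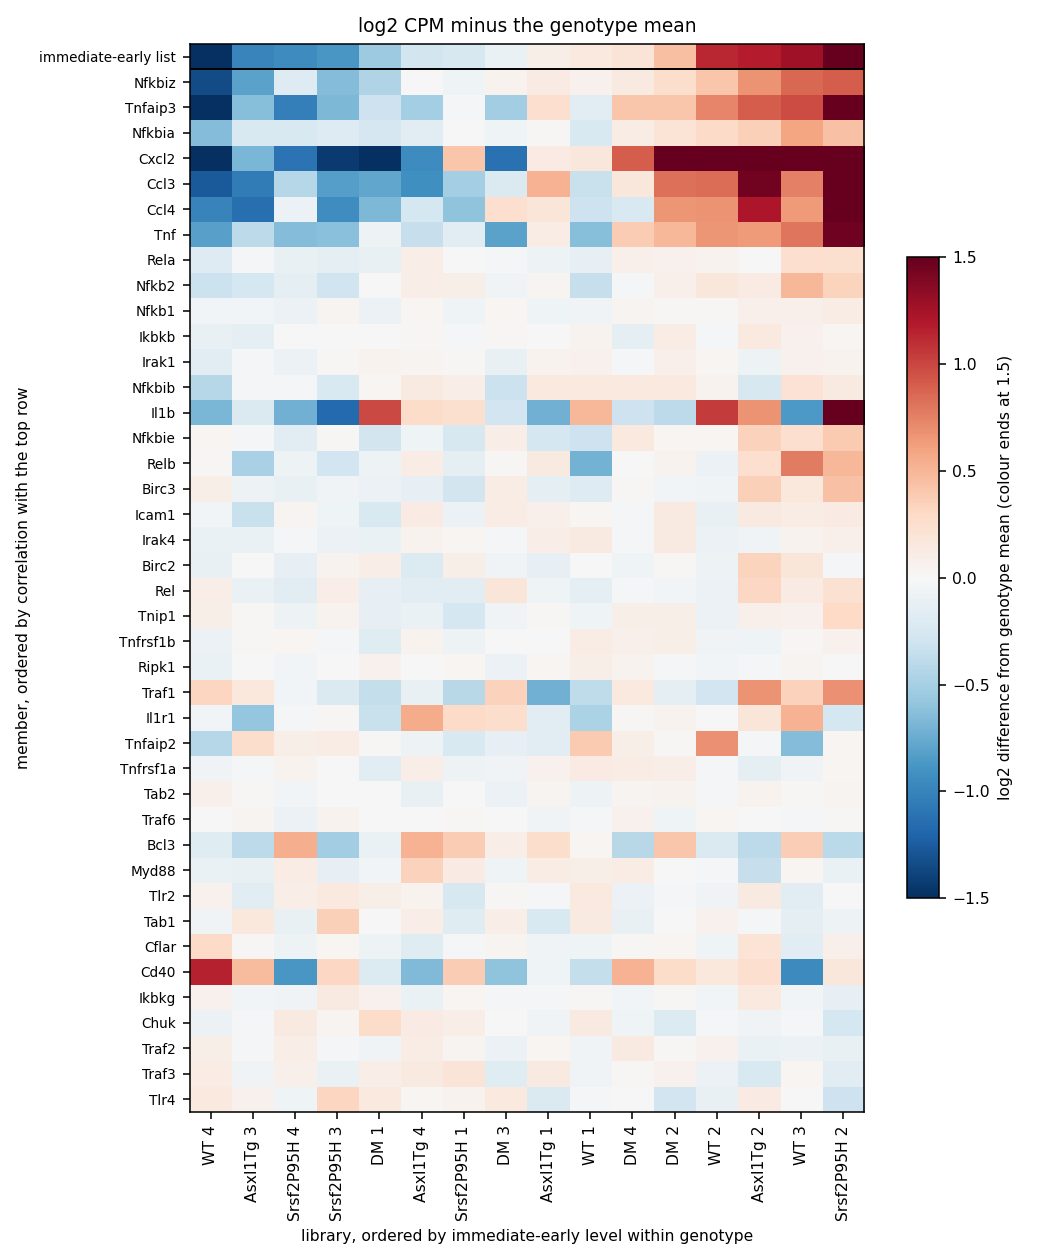
Log2 CPM minus the genotype mean (colour) for the 41 members (rows) and 16 libraries (columns, ordered by the immediate-early list in the top row). The 7 rows under the list, Nfkbiz to Tnf, run from low on the left, with WT 4 first, to high on the right, with Srsf2P95H 2 last, and among the other rows the subunits Relb and Nfkb2 reach 0.781 and 0.494 in WT 3.

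**Figure D5:**
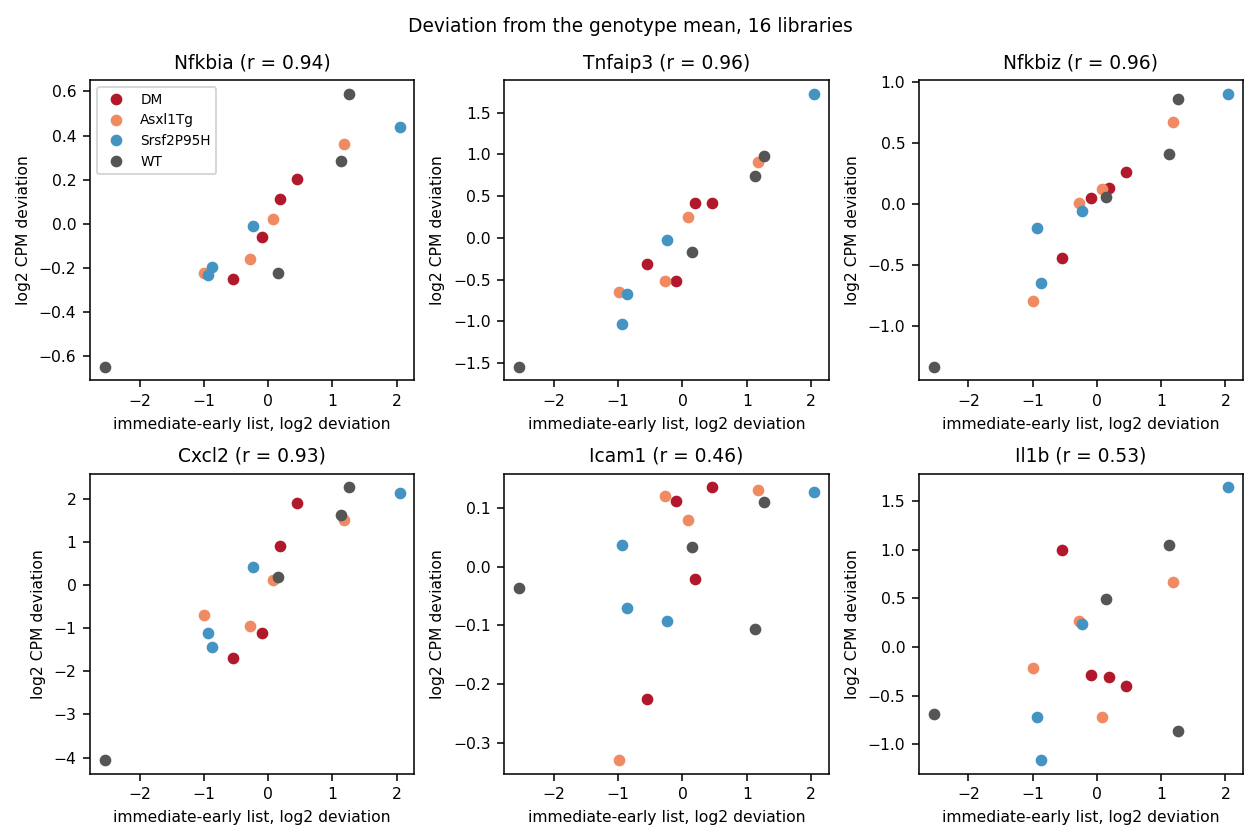
Log2 CPM of 6 members minus the genotype mean (y axis) against the mean log2 CPM of the 18 immediate-early genes minus the genotype mean (x axis), 1 point per library, coloured by genotype. Nfkbiz, Tnfaip3, Nfkbia and Cxcl2 rise along the axis (r from 0.93 to 0.96), and Icam1 and Il1b scatter.

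With the immediate-early level as a covariate, the calls among the members changed. In DM against WT, Irak4, Tnfrsf1a and Tnfrsf1b were then called, all higher, and Rel, Il1r1 and Tab2 were not. In Asxl1Tg against WT, Rel was kept and Tnfaip3 was called lower (log2 fold change -0.74, adjusted p = 0.04 with the covariate and 0.381 without it, edgeR). In the pooled Srsf2 comparison, Cxcl2 was called higher (1.41, adjusted p = 0.0313 with the covariate and 0.759 without it, edgeR). The list itself had a median log2 fold change of -1.355 in DM and -0.581 in Asxl1Tg against WT. It was -0.492 in the pooled Srsf2 comparison. The covariate thus overlaps with genotype, and these fits cannot separate them. Leaving out both WT 4 and Srsf2P95H 2, a choice made after seeing the data, DM against WT called Tnfaip3 (-1.69, adjusted p = 0.048), Nfkbiz (-1.18, adjusted p = 0.0497) and Nfkb2 (-0.55, adjusted p = 0.0467) lower, together with Tab2 and Tnfrsf1a higher. With all libraries the adjusted p of the first 3 were 0.181, 0.2 and 0.091 (edgeR). The share of all genes called is not given for this fit or for the covariate fit. The calls in them therefore cannot be read as particular to the members. WT 4 was the lowest WT library for these 3 genes or close to it, and leaving it out raises the WT mean. Leaving out both libraries also changes the estimate of spread that the genotypes share. Which of these moved the calls was not tested.

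The other feedback inhibitors and targets were steadier. Tnfaip2, a TNF-induced gene, measured 62.1, 62.5, 56.7 and 65.4 CPM in DM, 52.3, 57.6, 70.3 and 55.3 CPM in Asxl1Tg, 37.2, 44.6, 47.3 and 46.5 CPM in Srsf2P95H, and 49.8, 61.1, 24.2 and 28.4 CPM in WT. The DM libraries all lay above the Srsf2P95H libraries, as 1 of 41 members (2.44%) against 2.86% of all genes. With the Asxl1 transgene over both Srsf2 states it had a median of 59.9 CPM (52.3 to 70.29, n = 8), against 45.6 CPM (24.15 to 61.05, n = 8), a log2 fold change of 0.51 (SE 0.16, adjusted p = 0.127, edgeR). Icam1 means lay between 30.5 and 32.1 CPM in the 4 genotypes, and its exons share 11.7% of their length with the antisense transcript Gm47079. Tnip1, a partner of A20, averaged 55.3 CPM in DM, 52.8 CPM in Asxl1Tg, 52.5 CPM in Srsf2P95H and 60.7 CPM in WT. Cflar, which encodes the caspase-8 inhibitor c-FLIP, averaged 110.2 CPM in DM, 91.5 CPM in Asxl1Tg, 106.4 CPM in Srsf2P95H and 109.5 CPM in WT, and its log2 fold change in Asxl1Tg against WT was -0.26 (adjusted p = 0.124, edgeR).

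Few members were called between DM and either single mutant. Beside Tab2, the members whose DM libraries all lay above the Asxl1Tg libraries were Ikbkg, Tlr2, Tlr4, Traf6 and Ripk1, so that 6 of 41 did (14.6%), against 7.35% of all genes, and none lay wholly below, against 4.16%. In DM against Srsf2P95H, edgeR called no member, 1 was higher (2.44%, against 3.93% of all genes) and 1 lower (2.44%, against 2.55%) at an unadjusted p under 0.05, and DESeq2 called 0 members and 0.96% of all genes. The 3 with the smallest p were Cd40 (log2 fold change -1.66, adjusted p = 0.547), Tnfaip2 (0.49, adjusted p = 0.751) and Ccl4 (-1.18, adjusted p = 0.846). The value of Ccl4 was -0.30 without Srsf2P95H 2 and -0.27 with the immediate-early covariate. For the Asxl1 transgene over both Srsf2 states, edgeR called no member, 2 were higher (4.88%, against 6.83% of all genes) and 8 lower (19.5%, against 8.57%) at an unadjusted p under 0.05. DESeq2 called Rel and Tnfaip2, and 4.35% of all genes. The 3 with the smallest p were Rel (log2 fold change -0.28, adjusted p = 0.0812), Tnfaip2 and Traf6 (-0.10, adjusted p = 0.176). Rel had a median of 55.0 CPM (47.23 to 65.81) with the transgene, against 69.5 CPM (53.54 to 82.5) without it.

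A list of 106 further genes of the same pathways, of which 101 were tested, was read in the edgeR fit of all libraries. Its calls were not followed over the other settings or with a library left out. In DM against WT, 2 were higher (1.98%, against 4.65% of all genes) and 4 lower (3.96%, against 4.73%). Malt1, the paracaspase that links antigen receptors to NF-kB, averaged 46.7 CPM in DM, 46.2 CPM in Asxl1Tg, 48.9 CPM in Srsf2P95H and 61.5 CPM in WT, and fell by 0.40 log2 in DM (adjusted p = 0.0118, edgeR) and by 0.41 log2 in Asxl1Tg (adjusted p = 0.0194, edgeR). Tlr7, a sensor of single-stranded RNA, averaged 7.66 CPM in DM, 7.56 CPM in Asxl1Tg, 10.9 CPM in Srsf2P95H and 18.7 CPM in WT, and fell by 1.28 log2 in DM (adjusted p = 0.0235, edgeR) and by 1.30 log2 in Asxl1Tg (adjusted p = 0.0452, edgeR). Map3k8 (-0.98) and Nlrc3 (-0.81) also fell in DM, while Mlkl (0.40), the executor of necroptosis, and the chemokine gene Ccl9 (1.31) rose. In Asxl1Tg against WT, 1 was higher (0.99%, against 1.12% of all genes), the lymphotoxin receptor gene Ltbr (0.41). There were 5 lower (4.95%, against 0.76%), the others being the deubiquitinase gene Cyld (-0.29), Peli1 (-0.33) and Il18rap (-0.74). In Srsf2P95H against WT edgeR called 0, with 10 higher (9.9%, against 14.2% of all genes) and 16 lower (15.8%, against 11.1%) at an unadjusted p under 0.05. No gene of the list was called in DM against either single mutant or in the interaction. For the Asxl1 transgene over both Srsf2 states, Tlr7 (-0.91) and Malt1 (-0.24) were lower (1.98%, against 0.444% of all genes). For the Srsf2 mutation over both Asxl1 states, 4 were higher (3.96%, against 6.57% of all genes) and 5 lower (4.95%, against 4.07%). The higher were Tank (0.23), Mlkl (0.28), Casp8 (0.14) and Il1rap (0.28). The lower included the receptor genes Tnfrsf25 (-1.27), which averaged 0.35 CPM in WT, and Tnfrsf4 (-0.61).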

How the data were processed

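RNA of 16 mice was measured, and the authors deposited raw counts of reads per gene symbol in 1 table, with no normalization. Per the submitters' processing notes, mm10 was the genome and the tools were STAR 2.7.0e, HTSeq 0.11.2, Trimmomatic 0.38 and FastQC. Which annotation was counted, and whether by strand, is not stated in the sources used here, so reads from overlapping genes on opposite strands may not be told apart. The Asxl1Tg columns carry a short name and were matched by exclusion of the 3 groups whose names do match. The design text of the series speaks of 3 double-mutant mice, but 4 are labelled and have columns, and 4 entered the tests.

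The main test was edgeR 4.0.16 (R 4.3.3) on the counts, with TMM scaling, filterByExpr at a minimum count of 10 and a robust quasi-likelihood fit of all 16 libraries by genotype. Within each of 8 comparisons, Benjamini-Hochberg adjustment ran over 22749 genes, with calls at 0.05. The fit was checked on simulated counts for Asxl1Tg against WT, with 50 genes changed at each size. It found 3 of 50 at 1.2-fold, 23 of 50 at 1.5-fold, 30 of 50 at 2-fold and 48 of 50 at 4-fold. Small differences can therefore go uncalled. Log2 CPM used a prior count of 2. DESeq2 1.42.0 was an alternative, as were RLE factors, library size alone, no filter, a filter of 1 CPM in 4 libraries, the compared groups alone, a replicate block, covariates for the immediate-early and the myeloid (monocyte and macrophage) lists, and leaving out each library. An Xist covariate and leaving out both WT 4 and Srsf2P95H 2 were added after seeing the data. Exon lengths and overlaps come from GENCODE M21 (GRCm38). Promoters come from RefSeq (GRCm38.p6).

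The members, the lists and the rule for named genes were chosen with earlier results of these data known. By that rule, members called in at least 1 comparison are given in every library, the 3 smallest p where none was called, and the other members by their genotype means. In DM against WT the median SE of a log2 fold change was 0.113 over the members and 0.235 over all genes.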

Additional observations from a re-analysis of the deposited data

Results flagged for a closer look

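Of 164 groups of 4 libraries (41 members in 4 genotypes), 8 held a library whose gap to the nearest of the others exceeded Dixon's 95% critical share of the group's range, and chance gives about 1 in 20. In Srsf2P95H 2, Ccl3 (56.8 CPM, against 9.40 to 12.4 CPM in the other Srsf2P95H mice), Ccl4 (26.9 CPM, against 4.55 to 8.19 CPM) and Tnf (14.8 CPM, against 3.40 to 4.75 CPM) stood above the group. The immediate-early list was also highest in that library, and its part was not tested. Birc3 was high in Asxl1Tg 2 (42.0 CPM, against 29.7 to 31.1 CPM), the Asxl1Tg mouse with the highest immediate-early list. Icam1 was low in Asxl1Tg 3 (24.5 CPM, against 32.6 to 33.8 CPM). Il1b was high in DM 1 (0.414 CPM, against 0.146 to 0.159 CPM), where it rested on 46 reads. Nfkb1 was low in DM 1 (255.2 CPM, against 275.4 to 278.2 CPM). Tab1 was high in Srsf2P95H 3 (32.7 CPM, against 22.5 to 24.2 CPM).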

How the results depend on the processing

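Direction was followed for the called members, and for the 3 with the smallest p where none was called. None of their log2 fold changes reversed sign, but the counts of calls moved. The count of members called in Asxl1Tg against WT was 1, and it was 5 with DESeq2 (7.71% of all genes), 3 with the stricter filter, 3 with the replicate block, 2 with the immediate-early covariate, and 0 with the compared groups alone, with the myeloid covariate or without both WT 4 and Srsf2P95H 2. For Srsf2P95H against WT, 0 became 6 with DESeq2 (11.9%) and 1 with the replicate block (Nfkbie). For DM against WT, 4 became 8 with DESeq2 (16.8%), 1 without a filter and 2 with the myeloid covariate. For DM against Asxl1Tg, 1 became 2 with DESeq2 (5.4%) or without both WT 4 and Srsf2P95H 2, and 0 with RLE factors, library size alone, no filter, the stricter filter, the compared groups alone, the replicate block or either covariate list. For DM against Srsf2P95H, 0 became 1 with the compared groups alone (Tnfaip2). For the Asxl1 transgene over both Srsf2 states, 0 became 2 with DESeq2 (4.35%). For the Srsf2 mutation over both Asxl1 states, 7 became 2 with library size alone, 1 without a filter and 2 with the stricter filter. The interaction had 0 under all of them. The causes were not tested. Beside these counts, the share of all genes called is given for DESeq2 alone. Whether the other counts, also those with 1 library left out, moved along with all genes cannot be read from them. Leaving out 1 library gave 0 to 8 for Asxl1Tg against WT (8 without Asxl1Tg 2), 0 to 5 for Srsf2P95H against WT (5 without WT 1 or Srsf2P95H 2), 0 to 7 for DM against WT (7 without WT 1, 0 without WT 3, DM 2 or DM 4), 0 to 3 for DM against Asxl1Tg (3 without Asxl1Tg 2), 0 for DM against Srsf2P95H and the interaction, 0 to 2 for the pooled transgene (2 without Asxl1Tg 2, 1 without WT 2) and 1 to 8 for the pooled Srsf2 mutation (1 without DM 4, 8 without WT 1 or DM 3). With the replicate block, the calls lost were Tab2 in DM against WT (adjusted p 0.0526) and DM against Asxl1Tg (0.054), and Il1r1 (0.0589) and Tnfrsf1b (0.053) in the pooled Srsf2 comparison. The replicate numbers were not taken as pairs. Of 24 pairs with the same number, 7 correlated over 0.1 in their deviations from the group means (-0.462 to 0.425), and for 4 of the 16 the closest match was a library of their own number. Depth does not limit most members, but Cd40, Il1b and Cxcl2 rest on few reads.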
